A study of Mus musculus with 26 samples.

Results

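The genes described here carry glucose into the cell and through glycolysis: Slc2a1, Hk1, Hk2, Pfkp, Pfkfb3, Aldoa, Pgk1, Eno1 and Ldha, with Hif1a, which encodes a transcription factor that acts on many of them. They were chosen by name, as the entries of the count table with these symbols, with earlier results of these data known. They were 10 of 56738 gene symbols in the table, and all 10 were among the 16893 genes tested, which had a mean normalized count over 10 across the libraries.

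The study asked what the phospholipase PLA2G4D does in keratinocytes, the cells of the epidermis, at rest and during psoriasis-like inflammation. RNA was sequenced from primary keratinocytes of 13 mice, 5 wild-type (WT) and 8 lacking Pla2g4d (KO), and each mouse gave 1 library under basal conditions and 1 after 24 h with IL17A and TNFα, cytokines of psoriatic skin, each at 20 ng/ml. Replicates are separate mice, and the 26 libraries held 42072745 to 78102858 counts each.

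All mice were 2 days old and on a C57BL/6NJ background, and cells from a pair of wells of the same mouse were pooled per library. Cells grew for 4 days in low calcium (0.06 mM CaCl2) before the cytokines were added. The KO allele is a CRISPR deletion of the third exon of Pla2g4d, and KO mice came from homozygous breeding after backcrossing, so genotype and breeding cannot be told apart. The labels give no sex.

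Glucose enters keratinocytes mainly through the transporter GLUT1 and is trapped by hexokinases as glucose 6-phosphate. Phosphofructokinase commits it to glycolysis, the lower enzymes make ATP and pyruvate, and lactate dehydrogenase turns pyruvate into lactate. Glycolysis is known to be high in proliferating epidermis and in psoriatic skin, and the transcription factor HIF-1 raises most of these genes in low oxygen.

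The markers of the cells and of the treatment came first. Basal keratinocyte markers summed to 42814 ± 2100 CPM (mean ± SD, n = 5; CPM is the count scaled to the TMM-normalized size of the library) in untreated WT cells and to 34164 ± 1063 CPM in treated ones (n = 5), and to 42596 ± 2018 CPM and 34392 ± 502 CPM in KO cells (n = 8), with Krt5 the most abundant of the 7. Every treated library was below every untreated one in this sum, but the 7 markers did not move as a set. At an adjusted p under 0.1, 3 fell and 1 rose in WT cells (18% and 18.8% of all genes tested). In KO cells 3 fell and 2 rose (18.1% and 17.7%). Markers of differentiated keratinocytes, led by Krt1, summed to 2319, 4367, 3131, 3999 and 3295 CPM in WT replicates 1 to 5 under basal conditions and to 176, 285, 353, 317 and 301 CPM with the cytokines. In KO cells these sums ran from 1802 to 3887 CPM under basal conditions and from 119 to 227 CPM with the cytokines. At an adjusted p under 0.1, all 6 differentiation markers fell with the cytokines in both genotypes (18% and 18.1% of all genes tested). In treated cells 4 of 6 were lower in the KO group at that threshold (1.62% of all genes tested). S100a8, an antimicrobial gene that psoriatic cytokines induce, went from 30.2 ± 5.35 CPM to 1500.4 ± 315 CPM in WT cells (n = 5) and from 30.6 ± 7.14 CPM to 1133 ± 326 CPM in KO cells (n = 8).

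Markers of other cells were low, apart from melanocytes. The melanocyte markers, led by Tyrp1, summed to 429 to 609.8 CPM in the untreated WT libraries and 333 to 475 CPM in the treated ones, and to 466 to 628 CPM and 306 to 404 CPM in KO libraries. With the cytokines 3 of 6 melanocyte markers fell in WT and 5 of 6 in KO cells at an adjusted p under 0.1 (18% and 18.1% of all genes tested). In both genotypes 5 of 6 had a negative log2 change. In edgeR's test of the difference between the responses 0 of 6 had an adjusted p under 0.1, and 3 had an unadjusted p under 0.05. In treated cells 4 of 6 were lower in the KO group (1.62% of all genes tested). Fibroblast markers, led by Pdgfra, stayed at or under 7.43 CPM in sum, immune markers, led by Lyz2, at or under 16.8 CPM, with 2 of 7 at 0 in every library, and endothelial markers, led by Egfl7, at or under 9.02 CPM. The adipocyte markers were near 0. The part of any of these shifts in the values below was not tested, and fewer cells of a type and less RNA per cell cannot be told apart.

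WT replicate 1 stood apart from the other WT mice. Its 7 proliferation markers, led by Top2a, summed to 533 CPM under basal conditions, against 236, 289.6, 253 and 234 CPM in WT replicates 2 to 5, and to 628 CPM with the cytokines, against 309.96, 296, 300.3 and 293 CPM. In KO mice the sums ran from 254 to 495 CPM under basal conditions and from 381 to 574 CPM with the cytokines. With the cytokines 4 of 7 proliferation markers rose in KO cells and 0 in WT cells at an adjusted p under 0.1 (17.7% and 18.8% of all genes tested). All 7 had a positive log2 change in both genotypes (median 0.41 in KO and 0.33 in WT cells). In edgeR's test of the difference between the responses, 0 of the 7 had an unadjusted p under 0.05 (9.13% of all genes tested). Genotype comparisons are therefore given with and without WT replicate 1 where it changes them. The gene count of Pla2g4d includes reads outside the deleted exon and does not check the allele: it read 1.22, 4.41, 3.14, 3.34 and 4.63 CPM in WT replicates 1 to 5 under basal conditions and 28.6, 65.2, 47.1, 57.2 and 62.9 CPM with the cytokines, and had a median of 2.10 CPM and 36.2 CPM in KO cells.

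With IL17A and TNFα, the glycolytic genes moved in both directions and by small amounts. In WT cells the glucose transporter gene Slc2a1 fell by 31.3% and the phosphofructokinase gene Pfkp fell by 21.5%, while Aldoa, Pgk1, Eno1 and Ldha of lower glycolysis rose by 14.9% to 20.7%. In KO cells Slc2a1 and Pfkp fell, and Aldoa, Pgk1 and Eno1 rose by 5.92% to 13.5%, and no difference between the responses of the genotypes passed the test. No transcript of the 10 reached the change of more than 1.5-fold that the study asks for beside an adjusted p under 0.1.

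Counted by that rule of the study, 0 of the 10 genes were called in WT cells by edgeR's quasi-likelihood test, where 13.9% of all genes tested were called. At an adjusted p under 0.1 alone, 4 of the 10 were higher (18.8% of all genes tested) and 2 were lower (18% of all genes tested), and 8 had an unadjusted p under 0.05 (39.4% of all genes tested). In KO cells 0 of the 10 were called (10.9% of all genes tested). At an adjusted p under 0.1 alone, 3 were higher (17.7% of all genes tested) and 2 were lower (18.1% of all genes tested), and 6 had an unadjusted p under 0.05 (38.5% of all genes tested). DESeq2, and a fit with mice as a block, also called 0 of the 10 in either genotype. At an adjusted p under 0.1 alone, the block gave 4 higher and 4 lower in WT cells (40.9% of all genes tested, in either direction) and 4 higher and 3 lower in KO cells (39.3%), and DESeq2 gave 4 and 3 in WT cells (37.2%) and 3 and 3 in KO cells (36.0%). Groups that did not overlap were found in WT cells for 5 of the 10 genes (20.5% of all genes tested) and in KO cells for 2 (11.8% of all genes tested). "Rose" and "fell" refer from here on to an adjusted p under 0.1 in edgeR's fit without the block, which does not use the pairing of libraries by mouse. The median log2 change of the 10 genes was -0.03 in WT cells and 0.02 in KO cells, beside 0.01 and 0.00 over all genes tested.

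**Figure D1:**
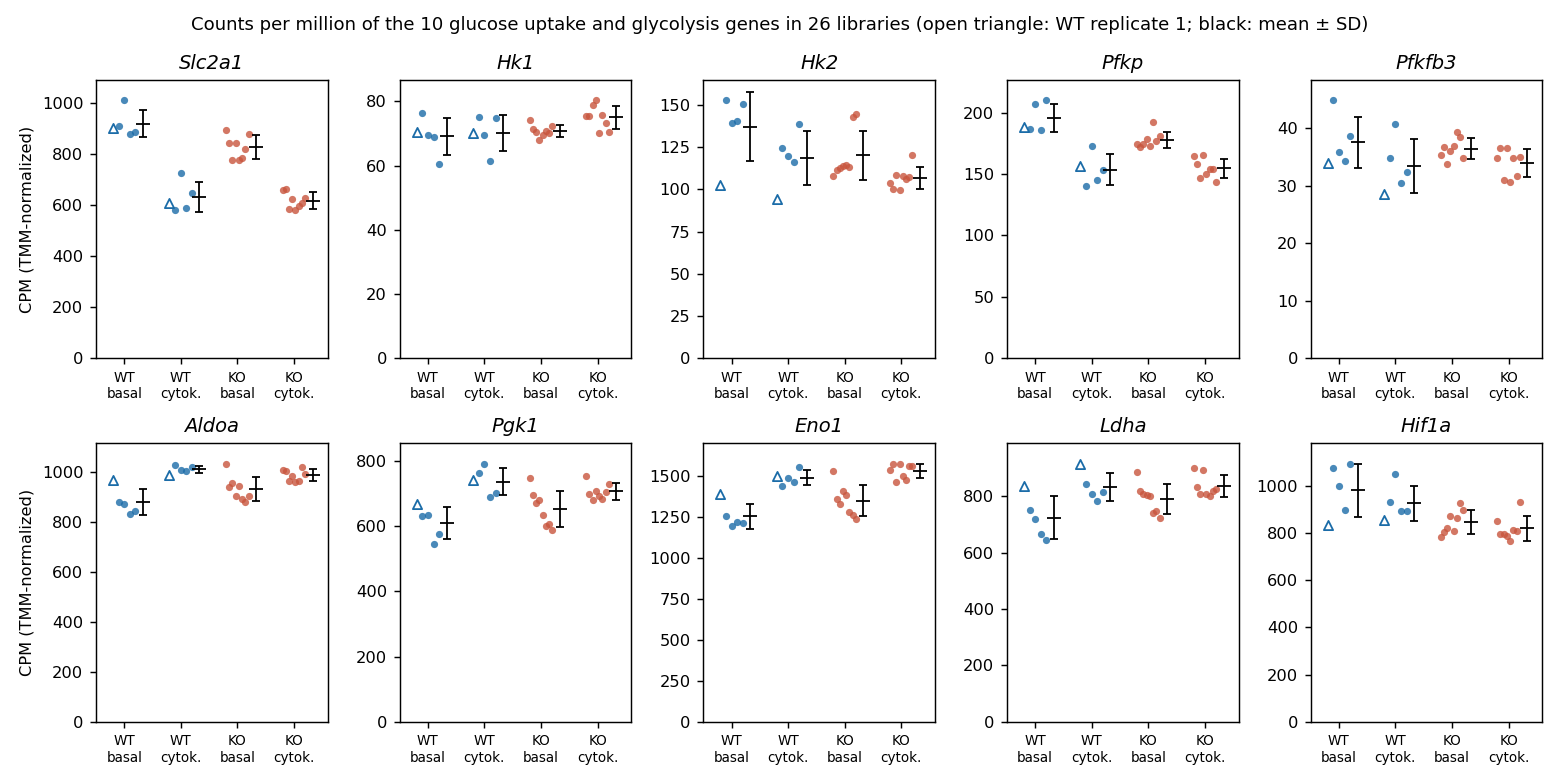
Scaled counts (CPM) of each of the 10 genes in every library, by genotype and treatment, with the group mean and SD (n = 5 WT and 8 KO mice) and WT replicate 1 as an open triangle. Slc2a1 and Pfkp sit lower in every treated library than in any untreated library of the same genotype, and Aldoa, Pgk1 and Eno1 sit higher in every treated WT library.

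Both the genes that fell and the genes that rose carry the same short motif near their start. The core of the hypoxia response element, searched as ACGTG or GCGTG on both strands, lay within the 250 bases before the start of the canonical transcript in 9 of the 10 genes, all but Pfkfb3. It also lay in 41.3% of 21770 promoters of the same length, so a match is common. In WT cells Slc2a1 and Pfkp fell while Aldoa, Pgk1, Eno1 and Ldha rose. The Aldoa match and some of the Ldha matches lie within annotated exons and are not shown. The other matches of these genes are in the stretches below. Each lies outside annotated exons in build GRCm39 (GENCODE vM39), is written 5′ to 3′ on the gene's own strand, and has its match in capitals: CACGT and CACGC are the same letters read from the other strand, and CACGTG holds overlapping matches of both strands. They lie at chr4:118965861-118965905 (plus strand), chr13:6699099-6699144 (minus strand), chrX:105230536-105230599 (plus strand), chr4:150320915-150320959 (plus strand) and chr7:46495063-46495108 (plus strand), the last between exons of a longer Ldha transcript.
Slc2a1: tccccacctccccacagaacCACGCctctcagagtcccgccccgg
Pfkp: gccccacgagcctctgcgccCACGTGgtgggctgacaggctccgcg
Pgk1: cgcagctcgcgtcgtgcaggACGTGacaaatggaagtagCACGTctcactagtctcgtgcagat
Eno1: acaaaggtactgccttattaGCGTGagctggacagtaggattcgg
Ldha: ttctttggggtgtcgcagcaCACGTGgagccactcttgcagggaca

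Slc2a1 (ENSMUSG00000028645, chr4:118965908-118996365, plus strand) encodes GLUT1, the transporter that brings glucose into basal keratinocytes. Under basal conditions it read 904, 913, 1012, 881 and 888 CPM in WT replicates 1 to 5, and with the cytokines 611, 583, 728, 588 and 649.6 CPM. Every treated WT library was below every untreated one, and WT replicate 3 was the highest in both conditions. In KO cells Slc2a1 ran from 777 to 895 CPM (median 833 CPM) under basal conditions and from 582 to 665 CPM (median 617 CPM) with the cytokines, again without overlap. The log2 change was -0.54 (SE 0.06, adjusted p = 1.24e-08) in WT and -0.42 (SE 0.05, adjusted p = 1.5e-08) in KO cells, a decrease in which Slc2a1 fell by 25.3% in the latter. Within mice the fall was seen in 5 of 5 WT mice (mean log2 change -0.54 ± 0.08, SD) and in 8 of 8 KO mice (-0.42 ± 0.04, SD). These were the lowest adjusted p-values of the 10 genes in either genotype.

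Hexokinases phosphorylate glucose once it is inside, and keratinocytes express both Hk1, the form most tissues share, and Hk2, the inducible form. Hk1 (ENSMUSG00000037012, chr10:62104621-62215687, minus strand) read 70.5, 76.3, 69.5, 68.8 and 60.4 CPM in untreated WT cells and 70.0, 75.0, 69.5, 61.5 and 74.7 CPM in treated ones. KO libraries ran from 68.0 to 74.1 CPM (median 70.6 CPM) untreated and from 70.0 to 80.3 CPM (median 75.6 CPM) treated. The groups overlapped in both genotypes, and the highest and lowest WT values both lay among untreated libraries. The log2 change of Hk1 was 0.02 (95% interval -0.09 to 0.13, adjusted p = 0.811) in WT and 0.08 (95% interval -0.01 to 0.17, adjusted p = 0.16) in KO cells. Fitted on the KO libraries alone, Hk1 had an adjusted p of 0.0821.

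Hk2 (ENSMUSG00000000628, chr6:82699740-82751469, minus strand) read 102.5, 153, 139.5, 141 and 151 CPM in WT replicates 1 to 5 under basal conditions and 94.5, 124, 119.6, 116 and 138 CPM with the cytokines. WT replicate 1 was far below the other WT mice in both conditions. In KO cells Hk2 ran from 108 to 144 CPM (median 113 CPM) under basal conditions, with KO replicates 7 and 8 at the top, and from 99.8 to 120.1 CPM (median 107 CPM) with the cytokines. Hk2 was lower with the cytokines than without them in 5 of 5 WT and 8 of 8 KO mice, though the groups overlapped. Its log2 change was -0.21 (SE 0.10, adjusted p = 0.105) in WT and -0.17 (SE 0.08, adjusted p = 0.103) in KO cells, past neither threshold. With mice as a block both passed an adjusted p of 0.1 (-0.21, adjusted p = 0.00251, and -0.16, adjusted p = 0.0027). Without WT replicate 1 they also passed (-0.24, adjusted p = 0.0243, and -0.17, adjusted p = 0.0235). The WT change passed as well without KO replicate 4, 6, 7 or 8 (adjusted p = 0.0588 to 0.0991), and the KO change without WT replicate 5 (adjusted p = 0.0916). By DESeq2 the adjusted p-values of Hk2 were 0.0915 and 0.0921, with edgeR's own filter it was 0.0987 in WT cells, and fitted on the KO libraries alone it was 0.0372.

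Phosphofructokinase makes fructose 1,6-bisphosphate, and its platelet-type subunit is encoded by Pfkp (ENSMUSG00000021196, chr13:6629798-6698970, minus strand). Pfkp read 188, 187, 207, 186 and 209.9 CPM in untreated WT cells and 156, 140.1, 173, 145 and 153 CPM in treated ones. KO libraries ran from 172 to 192 CPM (median 176 CPM) and from 143 to 165 CPM (median 154 CPM). No treated library reached the lowest untreated library of its genotype. The log2 change was -0.35 (SE 0.05, adjusted p = 3.84e-06) in WT and -0.20 (SE 0.04, adjusted p = 0.000284) in KO cells, lower in 5 of 5 and 8 of 8 mice. Pfkp overlaps Pitrm1, which lies on the opposite strand and had a median count of 60.5% of that of Pfkp. Whether the counting used the strand is not stated. Pitrm1 itself had a log2 change of -0.09 (adjusted p = 0.184) in WT and -0.02 (adjusted p = 0.792) in KO cells.

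Pfkfb3 (ENSMUSG00000026773, chr2:11476244-11558888, minus strand) makes fructose 2,6-bisphosphate, an activator of phosphofructokinase. It read 34.0, 44.8, 35.8, 34.2 and 38.7 CPM in untreated WT cells and 28.6, 34.7, 40.8, 30.4 and 32.3 CPM in treated ones. WT replicate 3 was the only WT mouse in which it was higher with the cytokines. In KO cells it ran from 33.8 to 39.2 CPM (median 36.3 CPM) and from 30.7 to 36.6 CPM (median 34.8 CPM), with overlap. The log2 change of -0.17 (SE 0.08, adjusted p = 0.127) in WT and of -0.10 (SE 0.06, adjusted p = 0.261) in KO cells did not pass. Without WT replicate 3 the WT change was -0.27 (adjusted p = 0.0158), and with mice as a block its adjusted p was 0.0638.

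Below the phosphofructokinase step, Aldoa (ENSMUSG00000030695, chr7:126393822-126399923, minus strand) encodes aldolase, which splits the sugar into triose phosphates. Aldoa read 965, 879, 871, 831 and 842 CPM in WT replicates 1 to 5 under basal conditions and 986, 1026, 1007, 1004 and 1020.3 CPM with the cytokines. WT replicate 1 was the highest untreated WT library and the lowest treated one, and the groups did not overlap. The log2 change in WT cells was 0.20 (SE 0.04, adjusted p = 0.000547), higher in 5 of 5 mice. In KO cells Aldoa ran from 879 to 1032 CPM (median 919.9 CPM) and from 957 to 1019 CPM (median 987 CPM), with overlap. The change there was 0.08 (SE 0.03, adjusted p = 0.067), higher in 7 of 8 mice, and it did not pass without KO replicate 2, 6, 7 or 8 (adjusted p = 0.117 to 0.218).

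Pgk1 (ENSMUSG00000062070, chrX:105230706-105247305, plus strand) encodes phosphoglycerate kinase, a step that makes ATP. It read 668, 631, 633, 545 and 575 CPM in untreated WT cells and 742, 762, 792, 689 and 701 CPM in treated ones. All 5 treated WT libraries lay above all untreated ones. The log2 change was 0.27 (SE 0.06, adjusted p = 0.000761) in WT cells, higher in 5 of 5 mice. KO libraries ran from 589.6 to 749 CPM (median 653 CPM) and from 681 to 756 CPM (median 702 CPM), with overlap. In KO cells the log2 change was 0.11 (SE 0.05, adjusted p = 0.0771), higher in 8 of 8 mice, and it did not pass without KO replicate 5, 6, 7 or 8 (adjusted p = 0.133 to 0.253).

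Eno1 (ENSMUSG00000063524, chr4:150321073-150337027, plus strand) encodes enolase, which makes phosphoenolpyruvate. It read 1386, 1253, 1196, 1215 and 1213 CPM in untreated WT cells and 1499.9, 1435, 1485, 1462 and 1555 CPM in treated ones. The WT groups did not overlap, and WT replicate 1 was the highest of the untreated. The log2 change was 0.25 (SE 0.05, adjusted p = 0.00022) in WT cells. In KO cells Eno1 ran from 1237 to 1528 CPM (median 1345 CPM) and from 1463 to 1573 CPM (median 1545 CPM), and 5 of 8 treated libraries lay above every untreated one. The KO change was 0.18 (SE 0.04, adjusted p = 0.000507), higher in 8 of 8 mice. The near copy Eno1b had a median count of 0.039% of that of Eno1.

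Ldha (ENSMUSG00000063229, chr7:46490899-46505061, plus strand) encodes the lactate dehydrogenase subunit that favours making lactate. It read 837, 752, 718, 665 and 645 CPM in untreated WT cells and 916, 845, 808, 783 and 815 CPM in treated ones. WT replicate 1 was the highest in both conditions, and its untreated library made the groups overlap. The log2 change was 0.20 (SE 0.06, adjusted p = 0.0113) in WT cells, higher in 5 of 5 mice. KO libraries ran from 724 to 885 CPM (median 802 CPM) and from 802 to 901 CPM (median 822 CPM). In KO cells the log2 change of 0.08 (SE 0.05, adjusted p = 0.237) did not pass, although Ldha was higher in 8 of 8 mice. With mice as a block its adjusted p in KO cells was 0.0426.

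Hif1a (ENSMUSG00000021109, chr12:73948149-73996321, plus strand) encodes the oxygen-regulated subunit of HIF-1, which is controlled mostly through the stability of the protein, not measured here. It read 832, 1075, 999, 899 and 1093 CPM in untreated WT cells and 854, 932, 1048, 894 and 893.5 CPM in treated ones. KO libraries ran from 783 to 926 CPM (median 842 CPM) and from 766 to 932 CPM (median 803 CPM). The treated and untreated groups overlapped in both genotypes, with 2 of 5 WT mice and 2 of 8 KO mice higher with the cytokines. The log2 change was -0.08 (95% interval -0.22 to 0.06, adjusted p = 0.39) in WT and -0.05 (95% interval -0.16 to 0.06, adjusted p = 0.569) in KO cells.

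**Figure D2:**
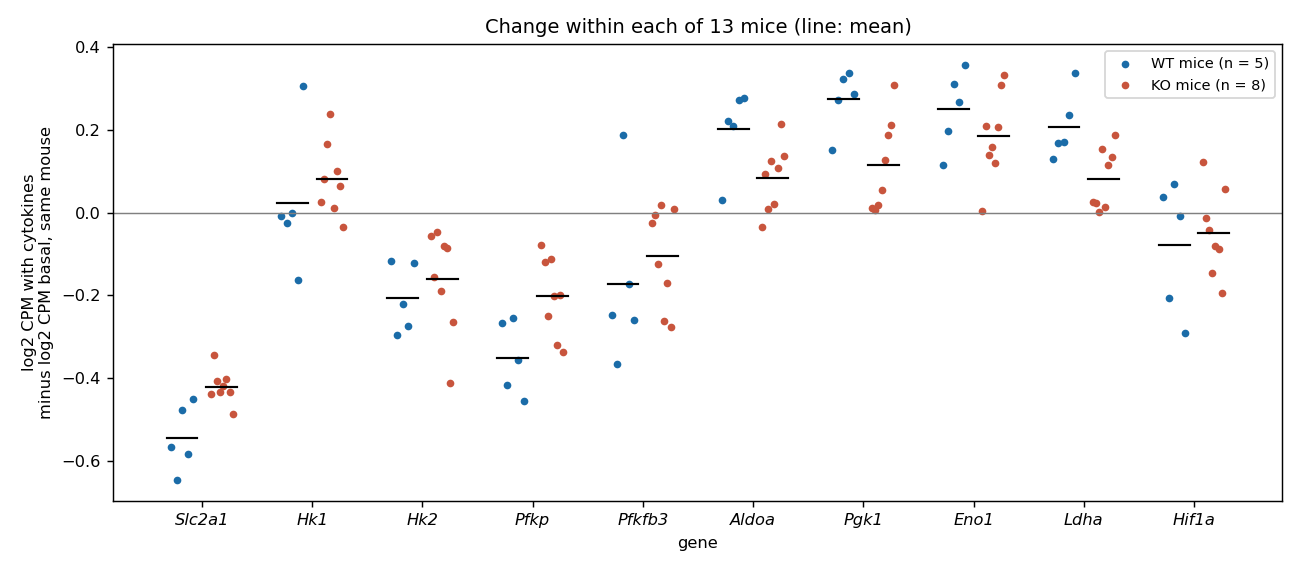
Log2 change of each gene with the cytokines inside each mouse (treated minus untreated library), 5 WT and 8 KO mice, with lines at the means. Slc2a1, Pfkp and Hk2 lie below 0 in all 13 mice, and Pgk1, Eno1 and Ldha lie above 0 in all 13.

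The sizes of the response can be set side by side for the genotypes. The difference of the log2 changes, KO minus WT, was 0.12 (95% interval -0.03 to 0.27) for Slc2a1, 0.15 (95% interval 0.01 to 0.28) for Pfkp, -0.12 (95% interval -0.23 to -0.00450) for Aldoa, -0.16 (95% interval -0.32 to -0.00167) for Pgk1, -0.12 (95% interval -0.28 to 0.04) for Ldha and 0.06 (95% interval -0.08 to 0.20) for Hk1. By edgeR's quasi-likelihood test of the difference, 0 of the 10 genes were called (0.219% of all genes tested) and 0 had an adjusted p under 0.1 (0.983% of all genes tested). Pfkp, Aldoa and Pgk1 had an unadjusted p under 0.05 (0.034, 0.0421 and 0.0478; 9.13% of all genes tested), with adjusted p-values of 0.48, 0.52 and 0.541. DESeq2 and the fit with mice as a block also gave 0 of the 10 at an adjusted p under 0.1 (1.48% and 2.80% of all genes tested).

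Under basal conditions, the transcripts Slc2a1, Pfkp and Hif1a were lower in KO cells. The WT libraries spanned 832 to 1093 CPM of Hif1a and the KO libraries 783 to 926 CPM, and 4 of 8 KO libraries lay below every WT library. Its log2 difference, KO minus WT, was -0.21 (SE 0.06, adjusted p = 0.0258). Slc2a1 was lower by a log2 difference of -0.15 (SE 0.05, adjusted p = 0.0665), with 6 of 8 KO libraries below every WT library, and Pfkp by -0.14 (SE 0.05, adjusted p = 0.0603), with 7 of 8. By edgeR's quasi-likelihood test 0 of the 10 genes were called by the study's rule (2.68% of all genes tested), and DESeq2 and the fit with mice as a block called 0. At an adjusted p under 0.1 alone 0 were higher (7.57% of all genes tested) and 3 were lower (6.06% of all genes tested), and 7 of the 10 had an unadjusted p under 0.05 (22.4% of all genes tested). DESeq2 also gave 0 higher and 3 lower (14.9% of all genes tested, in either direction). The fit with mice as a block gave 1 higher, Ldha (0.13, adjusted p = 0.0991), and 3 lower (14.8%).

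Whether these basal differences passed an adjusted p of 0.1 depended on single mice. The summed proliferation markers of the same untreated groups were 309 ± 127 CPM in the 5 WT and 388 ± 92.6 CPM in the 8 KO libraries. Of the 6 differentiation markers 2 were lower in KO cells at an adjusted p under 0.1 (6.06% of all genes tested). The part of both sets of markers was not tested. Hif1a did not pass without WT replicate 2 (-0.17, adjusted p = 0.112) or 5 (-0.17, adjusted p = 0.126). Slc2a1 did not pass without WT replicate 2 or 3 or KO replicate 3, 5 or 6 (-0.15 to -0.11, adjusted p = 0.101 to 0.146), and Pfkp did not pass without WT replicate 3 or 5 or KO replicate 2 or 5 (-0.13 to -0.11, adjusted p = 0.112 to 0.214). Without WT replicate 1, whose proliferation markers were high, 4 further genes passed: Hk2 was lower in KO cells (-0.29, adjusted p = 0.00577), and Aldoa (0.12, adjusted p = 0.042), Eno1 (0.14, adjusted p = 0.0354) and Ldha (0.18, adjusted p = 0.0162) were higher. In that fit 10.4% of all genes tested were higher in KO cells and 8.86% were lower. Without KO replicate 8, Eno1 (adjusted p = 0.0831) and Hk2 (adjusted p = 0.0644) passed, beside 8.26% of all genes tested higher and 7.67% lower. The number of all genes called by edgeR at the study's thresholds was 453 with all mice and 824 without WT replicate 1.

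Between treated WT and KO cells no gene of the 10 passed. Hif1a had a log2 difference of -0.17 (SE 0.06, adjusted p = 0.154), and 7 of 8 KO libraries lay below every WT library, KO replicate 8 being the exception. Slc2a1 had a log2 difference of -0.03 (95% interval -0.14 to 0.08) and Pfkp of 0.01 (95% interval -0.09 to 0.11). By edgeR's quasi-likelihood test 0 of the 10 genes were called (0.704% of all genes tested) and 0 had an adjusted p under 0.1 (2.84% of all genes tested). The summed proliferation markers of these treated groups were 365 ± 147 CPM in WT (n = 5) and 496 ± 58.8 CPM in KO cells (n = 8), and their part was not tested. Only Hif1a had an unadjusted p under 0.05 (0.00775, beside 15% of all genes tested). DESeq2 and the fit with mice as a block gave 0 at an adjusted p under 0.1 (4.74% and 3.18% of all genes tested). Without WT replicate 1, Hif1a (-0.20, adjusted p = 0.036) and Hk2 (-0.22, adjusted p = 0.0514) passed, beside 5.93% of all genes tested lower. Without KO replicate 8 Hif1a passed (-0.20, adjusted p = 0.0694), beside 4.04% lower. Fitted on the treated libraries alone, Hif1a had an adjusted p of 0.0865. The number of all genes called by edgeR was 119 with all mice, 558 without WT replicate 1, 291 without KO replicate 8, and 44 to 75 without WT replicate 2, 3, 4 or 5 or KO replicate 1, 2, 3, 5 or 6.

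**Figure D3:**
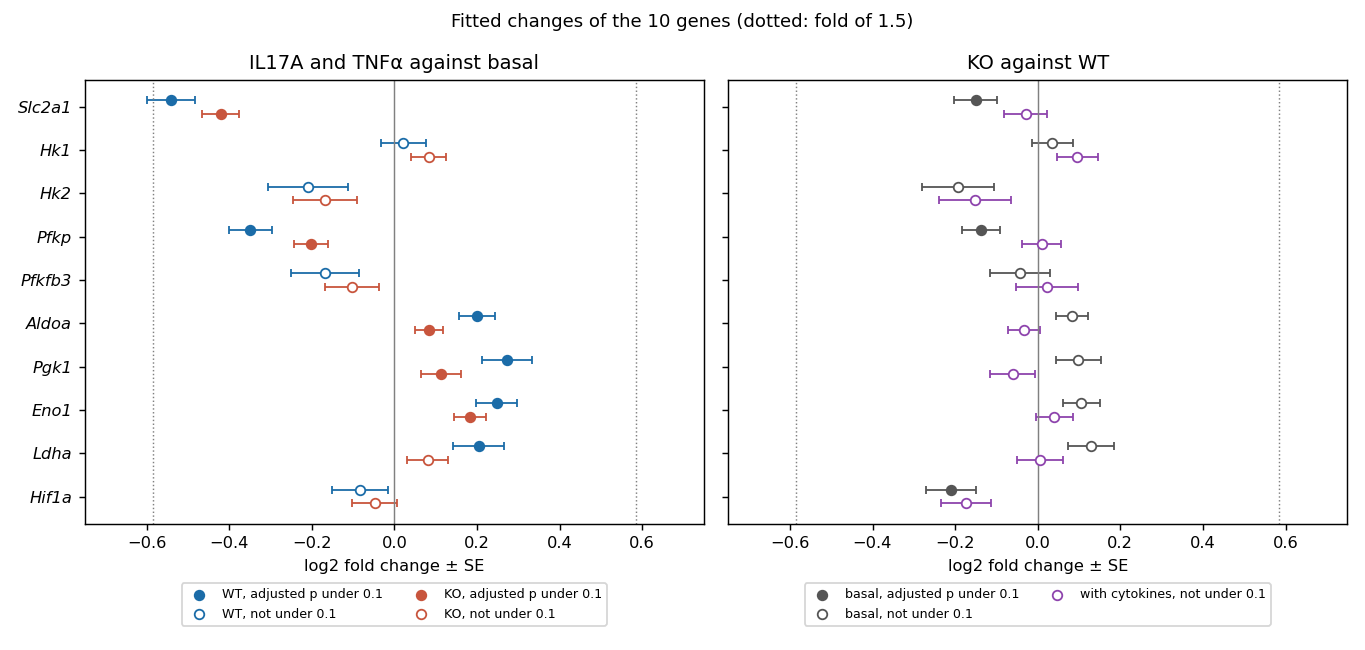
Log2 fold changes of the 10 genes ± SE with the cytokines in WT and KO cells, and between KO and WT cells under basal conditions and with the cytokines (edgeR, 5 WT and 8 KO mice); filled points have an adjusted p under 0.1 and dotted lines mark a fold of 1.5. The largest are the falls of Slc2a1 with the cytokines, -0.54 in WT and -0.42 in KO cells, with both estimates inside the dotted lines.

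Levels between genes were compared per kb of exon, in untreated WT cells. By the summed length of all exons, Pgk1 was the highest at 272 ± 22.1 CPM per kb (mean ± SD, n = 5), followed by Slc2a1 (196 ± 11.3), Aldoa (163 ± 9.80), Ldha (153 ± 16.1), Hif1a (117 ± 13.5), Eno1 (109 ± 6.71), Hk2 (16.6 ± 2.45), Pfkp (11.9 ± 0.711), Hk1 (7.88 ± 0.650) and Pfkfb3 (4.65 ± 0.556), all in CPM per kb. The ranges of Aldoa and Ldha, of Hif1a and Eno1, and of Hk2 and Pfkp overlapped between libraries. Inside a library Aldoa was above Ldha and Hk2 above Pfkp in 5 of 5, and Hif1a above Eno1 in 4 of 5. By the length of the canonical transcript, a choice made after seeing the data, Aldoa was the highest at 581 ± 34.9 CPM per kb, then Eno1, Ldha, Pgk1, Slc2a1, Hif1a, Pfkp, Hk2, Hk1 and Pfkfb3. By that length the ranges of Aldoa and Eno1, of Eno1 and Ldha, and of Hk2 and Hk1 overlapped, with the same order inside 5, 5 and 4 of the 5 libraries. The hexokinases, Pfkp and Pfkfb3 were the lowest 4 by either length. With the cytokines Slc2a1 went from rank 2 to rank 4 in WT cells and from rank 2 to rank 5 in KO cells by the summed exon length, where its range overlapped that of Eno1 in treated cells and that of Aldoa in untreated KO cells, but by the canonical or the longest transcript it was at rank 5 in all 4 groups. The 10 genes together took 0.585 ± 0.0259% of all counts in untreated and 0.596 ± 0.0237% in treated WT cells (n = 5), and 0.577 ± 0.0248% and 0.588 ± 0.0172% in KO cells (n = 8).

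The rest of the pathway was read from 9 lists holding 116 further genes, of which 108 were tested. With the cytokines 31 of the 108 (28.7%) rose and 26 (24.1%) fell in WT cells, beside 18.8% and 18% of all genes tested, and 31 (28.7%) rose and 23 (21.3%) fell in KO cells, beside 17.7% and 18.1%. Leaving out 1 WT mouse changed the WT counts most: 17 fell (15.7%, beside 15.5%) without WT replicate 3, 18 (16.7%, beside 15.3%) without WT replicate 4, and 23 rose (21.3%, beside 15.6%) without WT replicate 5. The counts per list that follow have the same shares over all genes beside them. By the study's rule 16 higher (14.8%) and 5 lower (4.63%) were called in WT cells, beside 8.65% and 5.26% of all genes tested, and 13 higher (12%) and 6 lower (5.56%) in KO cells, beside 6.33% and 4.55%. The named genes are among the 3 with the lowest adjusted p of each list in either genotype.

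Among the other glycolytic genes, 5 of 15 rose and 2 fell in WT cells, and 5 rose and 3 fell in KO cells. Gapdh, the enzyme between aldolase and Pgk1, rose from 1882 ± 151 to 2406 ± 75.3 CPM in WT cells (n = 5), with a log2 change of 0.35 (adjusted p = 1.47e-05), and by 0.20 (adjusted p = 0.000773) in KO cells. Ldhb, the lactate dehydrogenase subunit of oxidative tissues, rose by 0.38 (adjusted p = 0.000408) and 0.55 (adjusted p = 4.81e-08). Slc2a3, which encodes the transporter GLUT3, was scarce and fell from 3.05 ± 1.01 to 0.5256 ± 0.395 CPM in WT cells (log2 change -2.56, adjusted p = 7.97e-05) and from 2.15 ± 0.573 to 0.376 ± 0.263 CPM in KO cells (-2.51, adjusted p = 4.8e-06). Both GLUT1 and GLUT3 transcripts were thus lower with the cytokines.

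Among the other glucose transporters, 3 of 9 rose and 3 fell in WT cells, and 3 rose and 2 fell in KO cells. Slc5a1, which encodes the sodium-coupled transporter SGLT1, rose from 9.45 ± 1.2 to 70.2 ± 10.3 CPM in WT cells (log2 change 2.90, SE 0.14, adjusted p = 2.18e-15) and from 7.43 ± 1.30 to 53.0 ± 9.96 CPM in KO cells (2.83, SE 0.11, adjusted p = 1.27e-17). Slc2a12 fell, with log2 changes of -1.10 (adjusted p = 1.76e-06) and -0.79 (adjusted p = 7.98e-06). Slc2a6 was near 0 under basal conditions, with WT cells at 0.139 ± 0.155 CPM and KO cells at 0.0604 ± 0.102 CPM. With the cytokines the values were 0.906 ± 0.299 and 1.05 ± 0.320 CPM. Slc5a1 and Slc2a1 thus moved in opposite directions in both genotypes.

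Among regulators and genes of lactate or pyruvate handling, 5 of 18 rose and 5 fell in WT cells, and 5 rose and 4 fell in KO cells. The lactate exporter Slc16a3 rose by 0.78 (adjusted p = 9.21e-08) and 0.66 (adjusted p = 2.72e-08) on the log2 scale. Txnip, whose protein restrains glucose uptake, changed by -0.94 (adjusted p = 1.83e-07) and -0.61 (adjusted p = 4.4e-06). Pdha1, a subunit of the enzyme that feeds pyruvate to mitochondria, changed by -0.26 (adjusted p = 1.77e-06) and -0.21 (adjusted p = 1.25e-06).

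In the list of the TCA cycle 1 of 16 genes rose and 8 fell in WT cells (18.8% and 18% of all genes tested), and 0 rose and 7 fell in KO cells by edgeR (17.7% and 18.1%), where 7 had an unadjusted p under 0.05 and DESeq2 also gave 0 higher and 7 lower. The 8 that fell in WT cells were 5, 4 and 5 without WT replicate 2, 3 or 4. Its median log2 change was -0.13 in WT and -0.06 in KO cells, beside 0.01 and 0.00 over all genes tested. Idh3a fell by 0.18 on the log2 scale (adjusted p = 0.000383) in WT cells and by 0.13 (adjusted p = 0.00113) in KO cells. Ogdh changed by -0.19 (adjusted p = 0.00118) in WT cells and by -0.03 (adjusted p = 0.518) in KO cells, and Suclg2 by -0.18 (adjusted p = 0.0233) and -0.20 (adjusted p = 0.00189). Suclg2 did not pass in WT cells without WT replicate 3 (adjusted p = 0.151).

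In the HIF pathway list, 2 of 9 genes rose and 2 fell in WT cells, and 3 rose and 2 fell in KO cells. Egln3, an oxygen sensor that marks HIF for destruction, rose by 1.22 (adjusted p = 4.38e-07) and 1.42 (adjusted p = 3.5e-10), while Epas1, which encodes HIF-2α, changed by -0.97 (adjusted p = 8.89e-05) and -1.27 (adjusted p = 3.84e-08). Hif3a, at 0.373 ± 0.216 CPM in untreated WT cells, rose to 0.988 ± 0.467 CPM (log2 change 1.41, adjusted p = 0.0551), which did not pass without WT replicate 3 (adjusted p = 0.135) or 5 (adjusted p = 0.151), and in KO cells by 1.80 (adjusted p = 0.00159). Of 17 HIF targets outside glycolysis, 6 rose and 3 fell in WT cells, and 5 rose and 2 fell in KO cells. Ero1a rose by 0.77 (adjusted p = 1.08e-08) and 0.62 (adjusted p = 7.18e-09), and P4ha2 by 0.74 (adjusted p = 8.48e-07) and 0.66 (adjusted p = 9.12e-08).

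Branches that leave glycolysis were read the same way. In the pentose phosphate pathway 3 of 7 genes rose and 1 fell in each genotype, among them Taldo1 with 0.48 and 0.32 and Rpia with 0.28 and 0.40, while Rpe changed by -0.30 and -0.15. Of 12 genes of glycogen and hexosamine synthesis or use, 4 rose and 1 fell in WT cells, and 5 rose and 1 fell in KO cells. Pygl, which releases glucose from glycogen, rose by 1.10 (adjusted p = 6.47e-07) and 0.98 (adjusted p = 7.52e-08), and Gfpt1, the entry to hexosamines, by 0.64 (adjusted p = 1.07e-08) and 0.50 (adjusted p = 1.41e-08), while Ugp2 changed by -0.18 in both. Of 5 genes of the serine branch, 2 rose and 1 fell in each genotype: Phgdh by 0.22 and 0.18, Shmt2 by 0.20 and 0.20, and Shmt1 by -0.43 and -0.36. Shmt2 did not pass in WT cells without WT replicate 5 (adjusted p = 0.1).

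**Figure D4:**
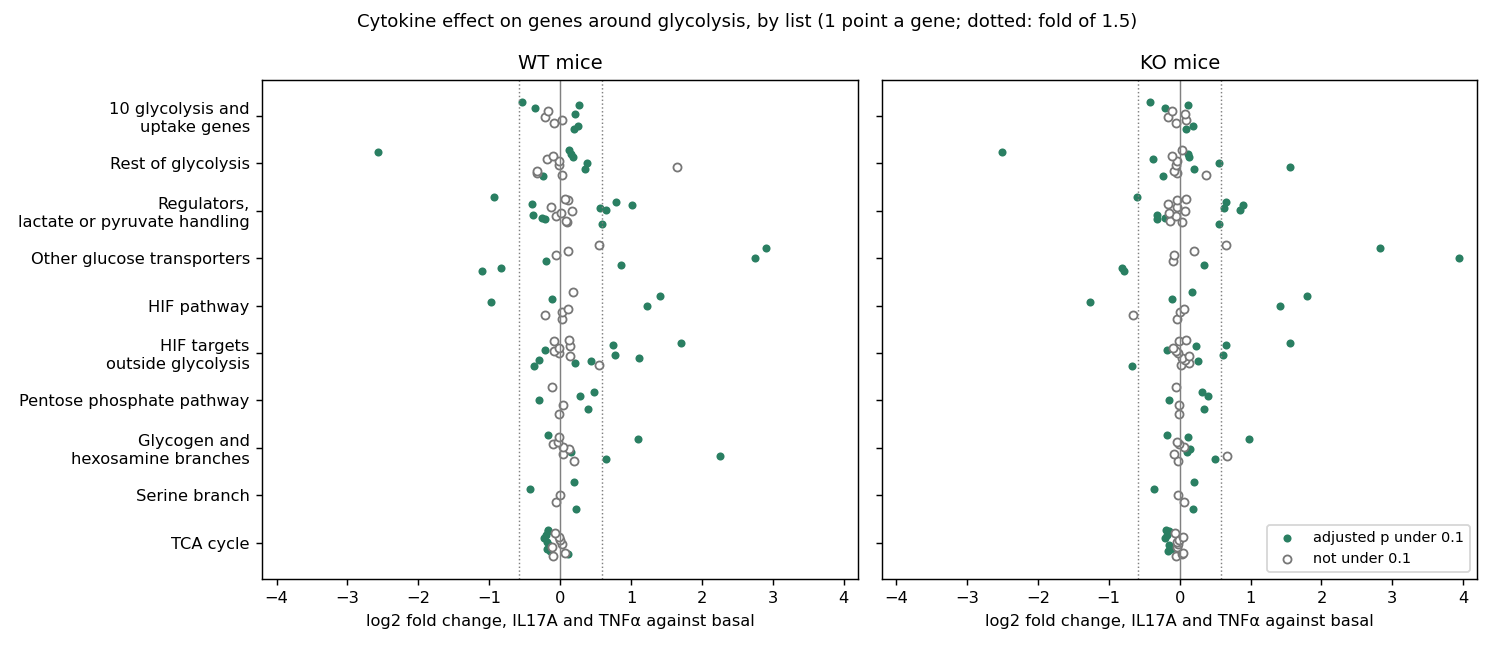
Log2 fold change of each gene with the cytokines (horizontal axis), by list, in WT and in KO cells, 1 point per gene tested; filled points have an adjusted p under 0.1 (edgeR) and dotted lines mark a fold of 1.5. In the TCA cycle 8 of 16 genes are filled and below 0 in WT and 7 of 16 in KO cells, and Slc5a1, among the other glucose transporters, lies at 2.90 and 2.83.

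Between genotypes under basal conditions, 9 of the 108 genes (8.33%) were higher in KO cells and 5 (4.63%) were lower, beside 7.57% and 6.06% of all genes tested. Without WT replicate 1 they were 18 (16.7%) and 7 (6.48%), beside 10.4% and 8.86%, without KO replicate 8 they were 12 and 9 (11.1% and 8.33%, beside 8.26% and 7.67%), and without WT replicate 4 they were 3 and 4 (2.78% and 3.7%, beside 5.51% and 4.33%). The 14 genes are named after their values were seen where the rule did not name them. The 9 higher ones were Adm (0.35, adjusted p = 0.0146), Gapdh (0.17), Gbe1 (0.36), Gfpt1 (0.21), Mdh2 (0.12), P4ha2 (0.29, adjusted p = 0.0413), Phgdh (0.19), Taldo1 (0.23) and Vhl (0.23). The lower ones were Txnip with a log2 difference of -0.39 (adjusted p = 0.0131), Slc5a1 of -0.34 (adjusted p = 0.0883), Slc2a12 of -0.47 (adjusted p = 0.0264), Pdk1, a brake on pyruvate oxidation, of -0.15 (adjusted p = 0.0572), and Car12. Car12, a carbonic anhydrase and like Adm and P4ha2 in the list of HIF targets, read 189 ± 14.3 CPM (n = 5) in the WT group and 116 ± 9.98 CPM (n = 8) in the KO group, a log2 difference of -0.71 (SE 0.07, adjusted p = 1.57e-07), and it was the only one of the 108 called by the study's rule. Adm, Gbe1, Taldo1, Txnip and Car12 passed under every alternative run. Slc2a12 did not pass without WT replicate 4 (adjusted p = 0.108), nor Pdk1 without WT replicate 3 or KO replicate 1, 3, 6 or 7 (adjusted p = 0.101 to 0.106). Slc5a1 did not pass with mice as a block (adjusted p = 0.332), when only the groups compared were fitted (adjusted p = 0.138), or without WT replicate 2, 4 or 5 or KO replicate 1, 2, 3, 5 or 6 (adjusted p = 0.11 to 0.258). Of the higher genes, Gapdh and Gfpt1 did not pass without WT replicate 4, Gapdh also without WT replicate 5, and P4ha2 without WT replicate 2, 4 or 5 (adjusted p = 0.104 to 0.184), and none of these 3 when only the groups compared were fitted (adjusted p = 0.106 to 0.152). Mdh2, Phgdh and Vhl each did not pass without any 1 of at least 6 mice, nor with no filter (adjusted p = 0.106 to 0.188). Mdh2 (adjusted p = 0.157) and Phgdh (adjusted p = 0.138) also did not pass when only the groups compared were fitted, nor Mdh2 with edgeR's own filter.

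With the cytokines 1 of the 108 was higher in KO cells, Ogdh (0.14, adjusted p = 0.0709), and 3 were lower, Car12 (-0.34, adjusted p = 0.019), Epas1 (-0.55, adjusted p = 0.0842) and Slc5a1 (-0.41, adjusted p = 0.0819), beside 2.84% of all genes tested, also named after their values were seen where the rule did not name them. Without WT replicate 1 the counts were 10 higher (9.26%) and 8 lower (7.41%), beside 6.27% and 5.93% of all genes tested, without KO replicate 8 they were 2 and 7 (1.85% and 6.48%, beside 2.59% and 4.04%), and without WT replicate 3 both were 0 (beside 0.266% and 0.391%). Car12 did not pass without WT replicate 3 (adjusted p = 0.115), Ogdh without WT replicate 2, 3, 4 or 5 or KO replicate 1, 2 or 5 (adjusted p = 0.104 to 0.179), and Epas1 and Slc5a1 without any 1 of WT replicates 2 to 5 or KO replicates 1 to 6 (adjusted p = 0.113 to 0.288 and 0.11 to 0.261). Epas1 also did not pass with mice as a block (-0.55, adjusted p = 0.147), Slc5a1 with limma on the authors' log2 values (-0.41, adjusted p = 0.1005) and Ogdh with no filter (0.14, adjusted p = 0.158). In edgeR's test of the difference between the responses 0 of the 108 passed (0.983% of all genes tested), and 6 had an unadjusted p under 0.05 (9.13% of all genes tested). DESeq2, which gave an adjusted p for 104 of them, had 1 higher and 0 lower there (0.962% and 0%). Of all genes that DESeq2 gave an adjusted p, 0.406% were higher and 1.35% lower. The fit with mice as a block had 3 higher and 2 lower (2.78% and 1.85%, beside 0.728% and 2.07%).

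Mice of the same group differed in Hk2 and in Ldha along with their proliferation markers. For each of the 13 mice, the log2 CPM of a gene was taken relative to the mean of its group and averaged over the untreated and treated library, and likewise the sums of the proliferation and of the differentiation markers. These 20 relations, 10 genes with 2 marker sums, were chosen after seeing the data, so their p-values describe them and are no independent test. The adjustment covered these 20 alone. The share of all genes tested with relations as strong was not computed, so the relations cannot be called particular to the 10 genes. Hk2 was lower in mice with more proliferation marker RNA (Pearson r = -0.95, permutation p = 1e-05, the smallest that the permutations can give, adjusted p = 0.0002; Spearman rho = -0.93, permutation p = 2e-05, adjusted p = 0.0004). The 2 mice farthest from the median were WT replicate 1 and KO replicate 1, and r was -0.88 over the other 11. Among the 8 KO mice alone r was -0.90, and the 5 WT mice are too few for a value.

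Ldha went the other way, with r = 0.86 (permutation p = 0.00017, adjusted p = 0.0017) and rho = 0.77 (permutation p = 0.00315, adjusted p = 0.021) against the proliferation markers, and r = 0.68 without those 2 mice. For Eno1 r was 0.78 (permutation p = 0.00143, adjusted p = 0.00553) and rho 0.62 (permutation p = 0.0275, adjusted p = 0.0612), with r = 0.62 without the 2 mice. Hif1a had r = -0.77 (permutation p = 0.00166, adjusted p = 0.00553) and rho = -0.65 (permutation p = 0.0193, adjusted p = 0.0551), with r = -0.63 without the 2 mice. Aldoa had r = 0.66 (permutation p = 0.0187, adjusted p = 0.0416) and rho = 0.58 (permutation p = 0.0401, adjusted p = 0.0801). Its r was 0.35 without the 2 mice and 0.60 among the 8 KO mice alone. For Pgk1 r was 0.60 (permutation p = 0.0251, adjusted p = 0.0502) and rho 0.62 (permutation p = 0.0263, adjusted p = 0.0612), with r = 0.47 without the 2 mice. Slc2a1 (r = 0.04, permutation p = 0.888; rho = 0.14, permutation p = 0.657) and Pfkp (r = 0.09, permutation p = 0.76; rho = 0.19, permutation p = 0.541) passed no threshold, nor did Hk1 (r = 0.27, permutation p = 0.358; rho = 0.49, permutation p = 0.0919) or Pfkfb3 (r = -0.42, permutation p = 0.158; rho = -0.18, permutation p = 0.552).

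Against the differentiation markers, Hk2 had r = 0.87 (permutation p = 0.00031, adjusted p = 0.00207) and rho = 0.86 (permutation p = 0.00031, adjusted p = 0.0031), and r = 0.75 without WT replicate 1 and KO replicate 8. Hif1a had r = 0.80 (permutation p = 0.00124, adjusted p = 0.00553) and rho = 0.65 (permutation p = 0.0171, adjusted p = 0.0551), with r = 0.56 without those 2 mice. Eno1 had r = -0.72 (permutation p = 0.00407, adjusted p = 0.0116) and rho = -0.70 (permutation p = 0.00966, adjusted p = 0.0458), with r = -0.66 without them, and Ldha r = -0.70 (permutation p = 0.00715, adjusted p = 0.0179) and rho = -0.69 (permutation p = 0.0114, adjusted p = 0.0458), with r = -0.56. The other 6 genes had r from -0.52 to 0.305 (permutation p = 0.0738 to 0.732) and rho from -0.52 to 0.17 (permutation p = 0.0694 to 0.964). The direction of any cause was not tested.

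**Figure D5:**
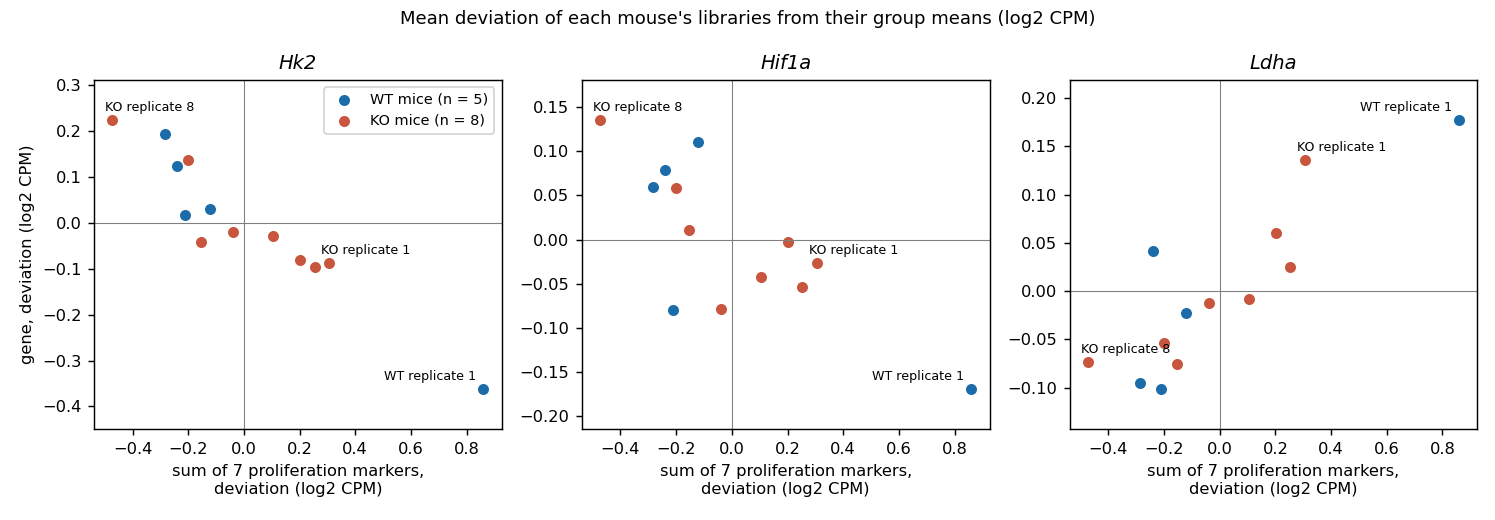
Log2 deviation of Hk2, Hif1a and Ldha from the group mean (vertical axes) against that of the summed proliferation markers (horizontal axes), 1 point per mouse (5 WT, 8 KO). Hk2 has r = -0.95, Hif1a r = -0.77 and Ldha r = 0.86, and WT replicate 1 is the mouse farthest to the right.

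Across the 26 libraries, after the group means were taken out, the lower glycolytic genes varied together. Aldoa, Pgk1, Eno1 and Ldha had pairwise r from 0.68 to 0.80, while Hk2 had r = -0.70 with Ldha and 0.69 with Hif1a. By the same measure Aldoa, Pgk1, Eno1 and Ldha had r of 0.38, 0.34, 0.42 and 0.46 with the total count of the library, and Hk2 and Hif1a had -0.25 and -0.35, and the part of the total count was not tested. These values describe libraries that share mice and carry no p. Of 11855 genes with a mean normalized count over 100, those most like Slc2a1 by the same measure were Kmt5c (r = 0.83), Gas1, Wnt3, Peli2 and Megf6 (r = 0.77). Most like Hk2 were Fchsd1 (r = 0.92), Hpgds, Serpinb6c, Csnk1e and Tfap2a (r = 0.90), and most like Hif1a were Epha4 (r = 0.84), Sgms1, Lgi2, Prss23 and Clec2e (r = 0.81).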

How the data were processed

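Bulk RNA was sequenced by a service provider from stranded libraries. The reads were aligned by the authors to mm39 with STAR 2.7.10b and counted per gene symbol with featureCounts 2.0.6. The deposited count table holds raw counts, and the deposited second table holds the authors' log2 values of size-factor normalized counts, used as an alternative only. The 26 columns were assigned to 4 groups by their labels. Counts were scaled by TMM and tested with edgeR 4.0.16 (quasi-likelihood, R 4.3.3) in 1 model of 4 groups over the 16893 genes with a mean normalized count over 10, and p-values were adjusted by Benjamini-Hochberg over all of them. A call needs an adjusted p under 0.1 and a fold over 1.5, as in the study. The study's own counts of genes came from DESeq2, so the counts by edgeR here are not the study's. The members and lists were chosen with earlier results of these data known. All 10 members are named, and of each list at most the 3 genes with the lowest adjusted p in either cytokine comparison. List genes that differed between genotypes were named in addition, after their values were seen.

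Libraries of the same mouse were checked as pairs: residuals correlated at 0.16 to 0.63 (median 0.44) within mice and at a median of -0.15 between mice. The main model did not use this pairing, and the fit with the mouse as a block did. Alternatives were DESeq2 1.42.0, DESeq2 size factors, limma 3.58.1 on the authors' log2 values, other filters, thresholds and group subsets, the mouse as a block, and each mouse left out. The canonical transcript length and the relations over mice were added after seeing the data. Positions and lengths come from GENCODE vM39 on GRCm39, in which 52624 of 56738 symbols were found. Permutation tests were two-sided with 100000 permutations (Python 3.11.15, SciPy 1.17.1). No library was left out.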

Additional observations from a re-analysis of the deposited data

Results flagged for a closer look

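In 5 of 44 groups of libraries tested, 1 library lay far from the others of its group by Dixon's test; chance gives about 1 in 20. Slc2a1 was highest in the untreated library of WT replicate 3, at 1011.9 CPM, with the next at 913 CPM. Hk2 was lowest in the untreated library of WT replicate 1, at 102.5 CPM, with the next at 139.5 CPM. With the cytokines Hk2 was highest in KO replicate 8, at 120.13 CPM, with the next at 108.8 CPM. Pfkp was highest in the untreated library of KO replicate 6, at 192.19 CPM, with the next at 180.9 CPM. Pla2g4d was highest in the treated library of KO replicate 8, at 59.189 CPM, with the next at 42.2 CPM. No cause was tested.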

How the results depend on the processing

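Of the fold changes of the 10 genes under all alternatives, 973 kept their direction and side of the threshold, 23 no longer passed, 28 newly passed and 16 reversed. The falls of Slc2a1 and Pfkp and the rise of Eno1 with the cytokines passed in both genotypes under every alternative run. For 73 values of other named genes, 1402 alternatives kept their side, 57 no longer passed and 1 newly passed. That tally leaves out the basal genotype differences of Adm, Gbe1, Gfpt1, Mdh2, P4ha2, Phgdh, Slc5a1, Taldo1 and Vhl. Those of them that did not pass under an alternative are given above and add to the losses. Of the counts per list 979 stayed within 1.5 times and 101 did not, and of the ranks of the levels per kb 8 stayed the same and 22 did not.

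The reversals all came from leaving out 1 mouse, in differences near 0 that passed no threshold. Over the mice left out, the log2 difference between treated genotypes ran from -0.0157 to 0.0485 for Ldha (below 0 without WT replicate 3, 4 or 5 or KO replicate 1 or 4), from -0.0218 to 0.0564 for Pfkp (below 0 without WT replicate 2 or 4 or KO replicate 1 or 4), from -0.0221 to 0.104 for Pfkfb3 (below 0 without WT replicate 1 or 4) and from -0.0568 to 0.0263 for Slc2a1 (above 0 without WT replicate 3). Between untreated genotypes it ran from -0.0092 to 0.0731 for Hk1 (below 0 without WT replicate 5) and from -0.0810 to 0.0290 for Pfkfb3 (above 0 without WT replicate 2). Hk1 ran from -0.0461 to 0.0638 for the cytokines in WT cells, and Hif1a from -0.0188 to 0.0775 for the difference of responses, both below 0 without WT replicate 5. The cause was not tested.

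Of the list counts for the cytokines in WT cells, those of the other glycolytic genes moved from 5 higher to 3 (only the groups compared, or without WT replicate 3, 4 or 5) and from 2 lower to 1 (no filter, or without any 1 WT replicate). The transporters moved from 3 lower to 1 without WT replicate 3. The HIF pathway moved from 2 higher to 1 without WT replicate 3 or 5, and from 2 lower to 1 with no filter, with only the groups compared, or without WT replicate 2, 3, 4 or 5. The glycogen and hexosamine genes moved from 4 higher to 2 and the serine branch from 2 to 1 without WT replicate 5, the pentose phosphate pathway from 1 lower to 2 with mice as a block, and the TCA cycle from 8 lower to 4 or 5 without WT replicate 2, 3 or 4. In KO cells the other glycolytic genes moved from 5 higher to 3 without KO replicate 2, 3 or 4, the glycogen and hexosamine genes from 5 to 3 without KO replicate 2 or 6, and the HIF pathway from 2 lower to 1 with no filter or without KO replicate 5 or 6. The others that moved were counts between untreated genotypes.

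With no fold threshold, 6, 5 and 3 of the 10 were called (cytokines in WT, cytokines in KO, untreated genotypes), and 6221, 6048, 2303, 479 and 166 of all genes (those, treated genotypes, difference of responses). At an adjusted p under 0.05, 1 of the 10 was higher with the cytokines in KO cells and 1 lower between untreated genotypes, and 54 and 21 genes were called between treated genotypes and for the difference of responses. With mice as a block, 4 of the 10 were lower with the cytokines in WT cells, 1 was higher between untreated genotypes, and 80 genes were called for the difference of responses, where DESeq2 called 62. Fitted on treated libraries alone, 1 of the 10 was lower and 180 genes were called. With no filter 3305 genes were called for the cytokines in KO cells.

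Leaving out 1 mouse gave 1 to 3 of the 10 higher with the cytokines in KO cells, 0 to 3 higher and 1 to 4 lower between untreated genotypes, and 0 to 2 lower between treated ones. It gave 341 to 824 genes called between untreated genotypes, 44 to 558 between treated ones and 18 to 92 for the difference of responses. The cause of these shifts was not tested. Depth does not limit the 10 genes, but Slc2a3, Slc2a6 and Hif3a are near 1 CPM or below in at least 1 group, where counting error is large.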
